A study of Mus musculus with 12 samples.

Results

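*Asb4* and 8 of its neighbours on proximal mouse chromosome 6 were followed in whole mouse embryos of E12.5, the stage of embryonic day 12.5. The 9 genes are *Calcr*, *Tfpi2*, *Sgce*, *Peg10*, *Ppp1r9a*, *Pon1*, *Pon3*, *Pon2* and *Asb4*, named here in chromosomal order, out of 23420 genes in each table of counts. *Asb4* was chosen by its measured rise in *Carm1* null embryos, whereas the other 8 genes are listed neighbours from the same stretch of the chromosome. The list does not hold every gene there, since *Casd1* and *Col1a2* lie within its span and *Pdk4* lies nearer to *Asb4* than *Pon2* does. Its difference in the *Carm1* line is therefore a description without a test.

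RNA was sequenced from 12 embryos of 2 lines, with 3 embryos in each of 4 groups and 1 library per embryo. In the *Carm1* line, labelled C57BL/6, 3 embryos were homozygous for the Carm1tm1Mtb allele (*Carm1* null) and 3 were wild type. In the *Pax3* line, a closed colony on a mixed background of CBA/Ca, 101 and C3H/He, 3 embryos were homozygous for Pax3Sp2h, the Splotch allele (*Pax3* null), and 3 were wild type. Heterozygous parents were intercrossed in each line, so null and wild-type embryos of a line come from crosses on the same background. Both alleles are carried in every tissue. The study compared the null embryos of each line with their own wild type to ask how loss of *Carm1*, an arginine methyltransferase and transcriptional coactivator, and loss of *Pax3*, a transcription factor of the neural tube, neural crest and somites, alter gene expression. Litters are not given in the sources used here, and replicate numbers are used only as names of embryos.

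Proximal chromosome 6 holds a cluster of imprinted genes, in which the copy from a given parent is silenced. The cluster is organised around a region, at the shared start of *Peg10* and *Sgce*, that is methylated on the maternal copy. *Peg10*, a gene derived from a retrotransposon and needed for the placenta, and *Sgce*, which encodes epsilon-sarcoglycan of the dystrophin-associated complex, are read from the paternal copy. *Asb4* is read from the maternal copy and encodes an ankyrin repeat and SOCS box protein, the part of a cullin 5 ubiquitin ligase that binds the substrate, known from embryonic blood vessels and the hypothalamus. *Ppp1r9a* encodes neurabin, which ties protein phosphatase 1 to actin, and is imprinted in some tissues. Among the remaining genes, *Pon1*, *Pon2* and *Pon3* encode paraoxonases, *Calcr* the calcitonin receptor and *Tfpi2* a Kunitz-type protease inhibitor, and for several of them a parental bias is known mainly in placenta or brain. The counts do not separate the parental copies. How reads with several matches were treated is not given in the sources used here, and nor is the strand setting, so the levels of *Peg10*, derived from a retrotransposon, and of *Pon2*, which a GENCODE gene on the opposite strand overlaps, could depend on them.

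On GRCm38 (mm10), with GENCODE gene models, the 9 genes span 1.747 Mb from the end of *Calcr* to the end of *Asb4*. *Asb4* lies at chr6:5383386-5433022 on the + strand, with up to 6 exons in a transcript, and *Pon2* ends 84930 bases before it at chr6:5264147-5298455 on the - strand. *Peg10* (chr6:4747306-4760517, + strand) and *Sgce* (chr6:4674350-4747207, - strand) stand head to head with 98 bases between them. *Ppp1r9a* lies at chr6:4902917-5165661 on the + strand. *Pon1* (chr6:5168090-5193946), *Pon3* (chr6:5220852-5256286), *Tfpi2* (chr6:3962595-3988919) and *Calcr* (chr6:3685680-3764714) are all on the - strand. *Carm1* and *Pax3* lie on chromosomes 9 and 1, so neither targeted locus is linked to the cluster.

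RefSeq (GRCm38.p6) gives windows of 250 bases before to 50 bases after a start for 7 of the 9 genes. The sequences of *Asb4* are shown because this gene was chosen by its rise in the *Carm1* line, and 1 of 2 windows of *Ppp1r9a* because it is a neighbour on the same strand that passed no test between null and wild-type embryos. Capitals mark CG dinucleotides, and each sequence is written 5′ to 3′ on the strand of its gene, chr6:5383136-5383435 and chr6:5390160-5390459 for the 2 starts of *Asb4* and chr6:4903061-4903360 for window 1 of *Ppp1r9a*, all on the + strand.
Asb4, first start: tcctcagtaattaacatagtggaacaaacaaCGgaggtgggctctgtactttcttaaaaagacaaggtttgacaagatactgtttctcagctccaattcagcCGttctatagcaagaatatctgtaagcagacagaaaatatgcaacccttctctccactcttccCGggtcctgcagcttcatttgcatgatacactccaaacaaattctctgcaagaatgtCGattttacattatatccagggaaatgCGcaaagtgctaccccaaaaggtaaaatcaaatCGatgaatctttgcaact
Asb4, second start: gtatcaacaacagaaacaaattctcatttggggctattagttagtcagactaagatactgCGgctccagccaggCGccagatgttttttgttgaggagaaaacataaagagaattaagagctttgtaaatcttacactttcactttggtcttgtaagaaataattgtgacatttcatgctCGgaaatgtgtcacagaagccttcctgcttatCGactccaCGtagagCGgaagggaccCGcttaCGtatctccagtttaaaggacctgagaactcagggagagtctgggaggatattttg
Ppp1r9a, window 1: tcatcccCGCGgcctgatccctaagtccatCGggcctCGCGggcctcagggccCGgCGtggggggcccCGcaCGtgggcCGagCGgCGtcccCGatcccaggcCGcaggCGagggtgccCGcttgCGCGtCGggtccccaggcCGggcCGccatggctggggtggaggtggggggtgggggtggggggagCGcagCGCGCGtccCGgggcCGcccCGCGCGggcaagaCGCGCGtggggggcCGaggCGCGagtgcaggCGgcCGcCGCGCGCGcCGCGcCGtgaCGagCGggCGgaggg
The first *Asb4* window holds 6 CG dinucleotides and the second 8, close to the median of 7 over 32851 windows in the table. The printed *Ppp1r9a* window holds 48, and 99.0% of all windows hold no more than that. Window 2 of *Ppp1r9a* (chr6:4902725-4903024) holds 10, and 58.6% of all windows hold no more, so the 2 windows of this gene differ and the second is near those of *Asb4*. TATAAA, searched on both strands, was in neither *Asb4* window nor in those of *Ppp1r9a*, and is in 13.6% of all windows. CCAAT, also on both strands, is in the first *Asb4* window and in 37.4% of all windows. The window of *Pon2* holds 31 CG dinucleotides and that of *Pon1* holds 3.

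Counts per library summed to between 17183344 and 23518692. Levels are counts scaled to library size (CPM) on library sizes scaled by edgeR's TMM method over all 12 libraries, and errors are SD with n = 3 unless stated. Differences are log2 fold changes of null over wild type with standard errors (SE), and adjusted *P* values come from edgeR's quasi-likelihood test, corrected over all genes tested by the Benjamini-Hochberg method with a threshold of 0.05. The targeted genes followed the labels. *Carm1* had 73.3 ± 3.58 CPM in *Carm1* null and 146 ± 7.16 CPM in wild-type embryos, and *Pax3* had 20.5 ± 2.34 CPM in *Pax3* null and 27.8 ± 3.06 CPM in wild-type embryos. Replicate libraries correlated at 0.993 to 0.996 on log2 CPM and differed by more than counting error. Y-linked genes had at least 100 counts in 1 of 3 wild-type and 0 of 3 null embryos of the *Carm1* line, and in 2 of 3 wild-type and 1 of 3 null embryos of the *Pax3* line. With a term for these libraries *Asb4* was at 0.89 in the *Carm1* line and -0.26 in the *Pax3* line, and *Peg10* at 0.15 and -0.33. In whole embryos, fewer cells of a type and less RNA per cell cannot be told apart.

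Per kilobase of exon, with all GENCODE exons of a gene counted, the levels of the 9 genes differed widely. The order given here depends on that length, since the annotation used for counting is not given. In CPM the mean of *Ppp1r9a* was above that of *Asb4* in every group but *Carm1* null, such as 125 against 83.3 in *Carm1* line wild type. *Peg10* was the most abundant gene of the cluster, with a mean over 12 libraries of 78.4 CPM per kilobase (68.5 to 95.8), followed by *Asb4* with 26.5 (20.5 to 38.9) and *Ppp1r9a* with 8.26 (7.16 to 9.12). The ranges of these 3 genes did not overlap. *Pon2* (mean 3.22) and *Sgce* (mean 3.15) followed with overlapping ranges, and *Pon3* came next with 1.90. *Tfpi2* at 0.594 and *Calcr* at 0.356 had few counts, with 9 to 37 and 14 to 40 per library. *Pon1* had 0 to 5 counts in each library. That is at or close to the level of 3 counts, which corresponds to 0.125 to 0.180 CPM, so no group difference of *Pon1* was detectable at this depth. The filter on low counts removed *Pon1*, and the other 8 genes were tested in every comparison.

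**Figure D1:**
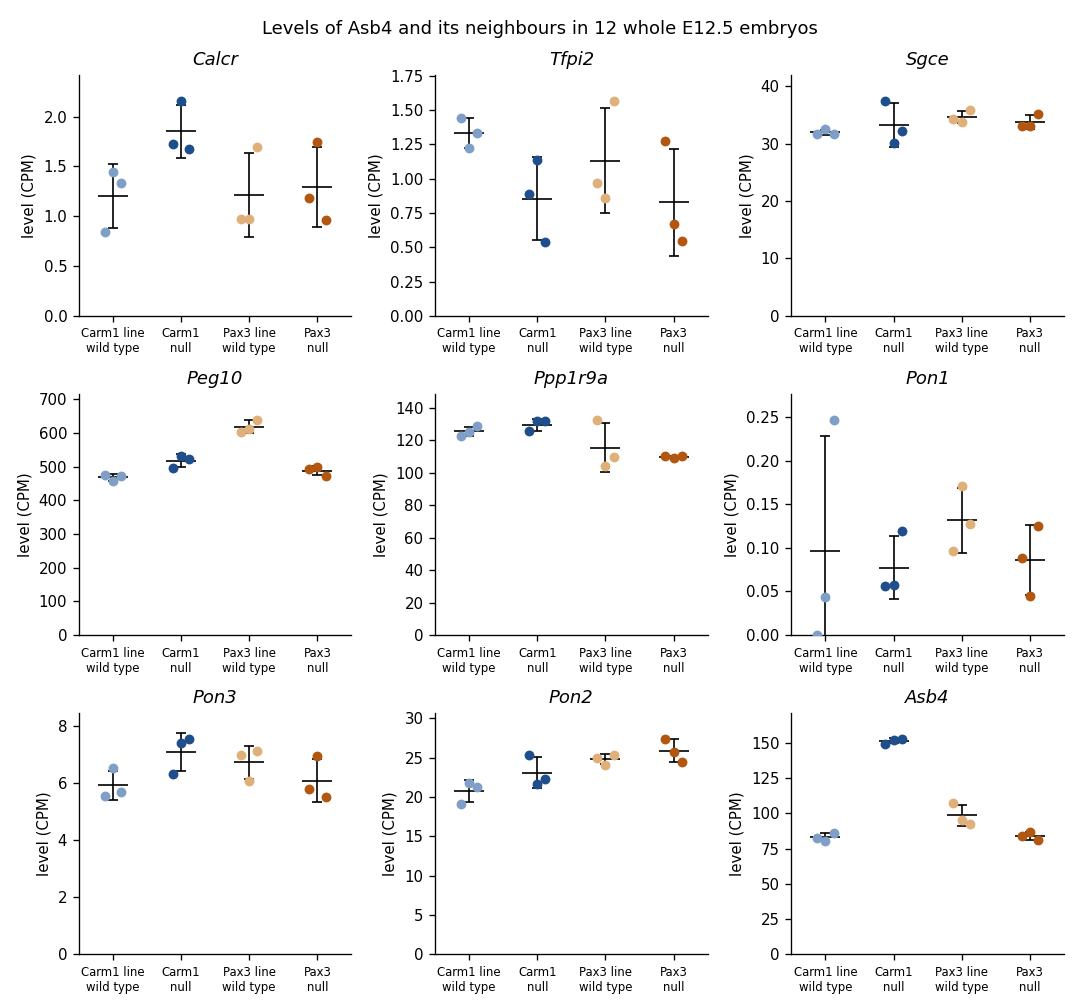
Level (CPM, vertical axis from 0) of each of the 9 genes in each of 12 embryos (points), with mean and SD (bars), by group (horizontal axis). *Asb4* separates the *Carm1* null embryos (149.7 to 153 CPM) from all others (80.7 to 107 CPM), and *Peg10* is highest in the wild-type embryos of the *Pax3* line (601 to 639 CPM).

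In *Carm1* null embryos *Asb4* stood 1.82-fold above its wild-type level, *Peg10* was 1.10-fold higher, and none of the other 6 tested genes of the cluster passed the test. *Asb4* measured 149.7, 152 and 153 CPM in the *Carm1* null embryos. In the wild-type embryos of this line it measured 82.9, 80.7 and 86.4 CPM. All null embryos lay far above all wild-type embryos, and the spread within each group was small beside the gap. The means were 152 ± 1.73 and 83.3 ± 2.85 CPM, and the log2 fold change was 0.86 (SE 0.046). These values chose the gene and carry no test. Of 868 genes called higher in *Carm1* null embryos, 59 had a larger log2 fold change than *Asb4*. Among the 252 of them with a mean of at least 80 CPM in this line, 1 did, the embryonic globin gene *Hbb-bh1* (log2 fold change 1.30). The next gene among those 252 was *Spen*, at 0.46. The level of 80 CPM was set with the value of *Asb4* known, so this ranking describes the choice of the gene and supports nothing further.

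*Peg10* was measured at 497, 532 and 524 CPM in *Carm1* null and at 476, 457 and 472 CPM in wild-type embryos. The groups did not overlap, but the lowest null embryo and the highest wild-type embryo were close. The log2 fold change was 0.14 (SE 0.045, edgeR adjusted *P* = 0.029). This call was lost without wild-type replicate 2 (adjusted *P* = 0.17), without null replicate 2 (0.17), without null replicate 3 (0.12), without TMM scaling (0.055), with the replicate block (0.076) and in a joint fit of 12 libraries (0.065). *Sgce*, whose start is shared with *Peg10*, had 37.5, 30.2 and 32.1 CPM in null and 31.7, 32.5 and 31.8 CPM in wild-type embryos. The groups overlapped and the log2 fold change was 0.057 (SE 0.073, edgeR adjusted *P* = 0.68). *Ppp1r9a* had 125, 131 and 132 CPM in null and 123, 125 and 128 CPM in wild-type embryos, with a log2 fold change of 0.045 (SE 0.045, edgeR adjusted *P* = 0.58).

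The gene closest to *Asb4* among the 9, *Pon2*, was measured at 25.3, 21.7 and 22.2 CPM in *Carm1* null and at 19.1, 21.8 and 21.3 CPM in wild-type embryos. These overlapping values gave a log2 fold change of 0.15 (SE 0.084, edgeR adjusted *P* = 0.26). *Pon3* had means of 7.07 ± 0.675 and 5.90 ± 0.523 CPM, and a log2 fold change of 0.25 (SE 0.14, edgeR adjusted *P* = 0.26). *Calcr* and *Tfpi2* had few counts and wide errors. *Calcr* had 31, 38 and 28 counts in null and 14, 33 and 27 in wild-type embryos (log2 fold change 0.59, SE 0.29, edgeR adjusted *P* = 0.19), and *Tfpi2* had 16, 20 and 9 against 24, 28 and 27 (-0.62, SE 0.34, edgeR adjusted *P* = 0.25). In CPM neither gene overlapped between the groups, yet neither passed the test. Of the 6 tested genes other than *Asb4* and *Peg10*, 0 were called by edgeR or by DESeq2, and 0 had an unadjusted *P* below 0.05 in edgeR. With SE of 0.29 and 0.34, changes of *Calcr* and *Tfpi2* may have been missed, and the smallest detectable change was not measured.

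Over all 15811 genes tested in the *Carm1* line, 13.3% were called, 5.49% higher and 7.83% lower, and 30.0% did not overlap between the groups. Of the 8 tested genes of the cluster, 2 were called, *Asb4* and *Peg10*, both higher, and 4 did not overlap. The median log2 fold change of the 8 genes was 0.15, against 0.0014 over all genes. As the contrast chose *Asb4*, no weight is put on these counts.

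**Figure D2:**
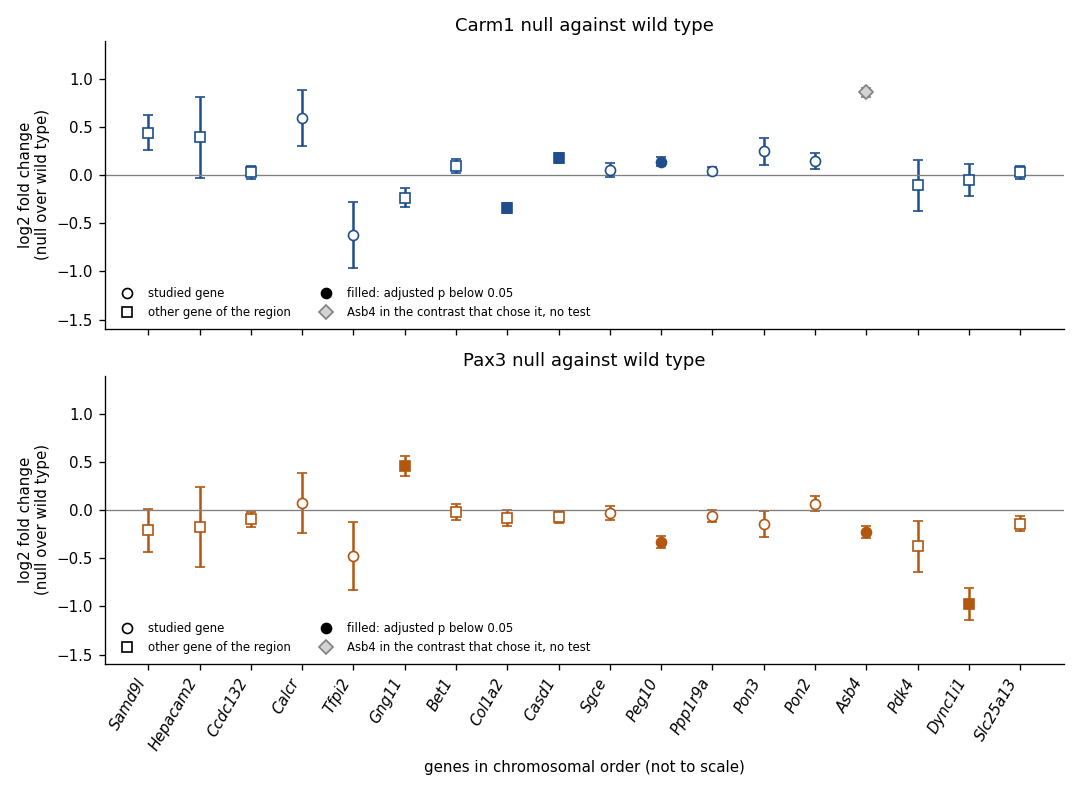
Log2 fold change of null over wild type with SE (vertical axis) for tested genes of the region in chromosomal order (horizontal axis, not to scale), in the *Carm1* line (top) and the *Pax3* line (bottom). Filled symbols passed an adjusted *P* of 0.05, and the grey diamond is *Asb4* in the contrast that chose it. In the *Carm1* line *Asb4* stands at 0.86 between *Pon2* at 0.15 and *Pdk4* at -0.10, and in the *Pax3* line *Peg10* and *Asb4* lie below 0.

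In *Pax3* null embryos, a comparison that had no part in the choice of *Asb4*, both *Asb4* and *Peg10* were lower than in wild type. *Asb4* was measured at 83.9, 86.5 and 81.0 CPM in *Pax3* null and at 107, 95.6 and 92.8 CPM in wild-type embryos. The groups did not overlap, and wild-type replicate 1 lay above the other wild-type embryos. It had 2 Y-linked counts, against 4447 and 6118 in wild-type replicates 2 and 3. Null replicate 3, the lowest null embryo, had 6102. The value with a term for Y-linked counts is given above. The means were 83.8 ± 2.77 and 98.6 ± 7.71 CPM and the log2 fold change was -0.22 (SE 0.060, edgeR adjusted *P* = 0.0074). The call was lost without null replicate 3 (log2 fold change -0.20, edgeR adjusted *P* = 0.061). *Peg10* was measured at 491, 500.1 and 473 CPM in null and at 601, 613 and 639 CPM in wild-type embryos. The highest null embryo lay well below the lowest wild-type embryo. The log2 fold change was -0.33 (SE 0.064, edgeR adjusted *P* = 4.1e-04), and it passed the test under all 16 alternatives run, between -0.35 and -0.27.

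Over all genes, fold changes in the *Pax3* line fell with exon length, from a median log2 fold change of 0.22 in the shortest eighth of genes to -0.11 in the longest. They rose with GC content, from -0.13 in the lowest eighth to 0.19 in the highest. *Asb4* lies in the fourth eighth by length (median 0.016) and the second by GC content (-0.089), and *Peg10* in the sixth by length (-0.045) and the third by GC content (-0.062). With offsets for length and GC content, an alternative added after seeing the data, *Asb4* was at -0.17 (edgeR adjusted *P* = 0.035) and *Peg10* at -0.27 (edgeR adjusted *P* = 8.5e-04), so both kept their direction and their call.

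Among the other 6 tested genes of the cluster 0 passed edgeR's test in the *Pax3* line, 0 had an unadjusted *P* below 0.05, and 0 were called by DESeq2, which gave no adjusted *P* for 2 of them. *Sgce* had 33.1, 33.0 and 35.2 CPM in null and 34.3, 33.8 and 35.9 CPM in wild-type embryos, with a log2 fold change of -0.027 (SE 0.076, edgeR adjusted *P* = 0.83). *Ppp1r9a* had 110.4, 109 and 109.9 CPM in null embryos, whereas in wild-type embryos it had 132, 104 and 109 CPM. Wild-type replicate 1, which was also highest for *Asb4*, stood apart here, and the log2 fold change was -0.060 (SE 0.067, edgeR adjusted *P* = 0.56). With length and GC offsets *Sgce* and *Ppp1r9a* turned to 0.16 and 0.075, neither of which passed the test. *Pon2* had means of 25.8 ± 1.46 CPM in null and 24.8 ± 0.620 CPM in wild-type embryos (log2 fold change 0.069, SE 0.081, edgeR adjusted *P* = 0.58), and it became a call with those offsets (0.22, edgeR adjusted *P* = 0.045). *Pon3* was at -0.14 (SE 0.14), *Calcr* at 0.072 (SE 0.31) and *Tfpi2* at -0.47 (SE 0.35), none of which passed.

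Over all 15724 genes tested in the *Pax3* line, 24.5% were called, 14.0% higher and 10.5% lower, and 39.9% did not overlap between the groups. The 2 calls among 8 tested genes of the cluster, both lower, are close to the share of calls over all genes. Without overlap were 2 of the 8, and neither count is a result about the cluster. The median log2 fold change of the 8 genes was -0.10, against -0.0026 over all genes.

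**Figure D3:**
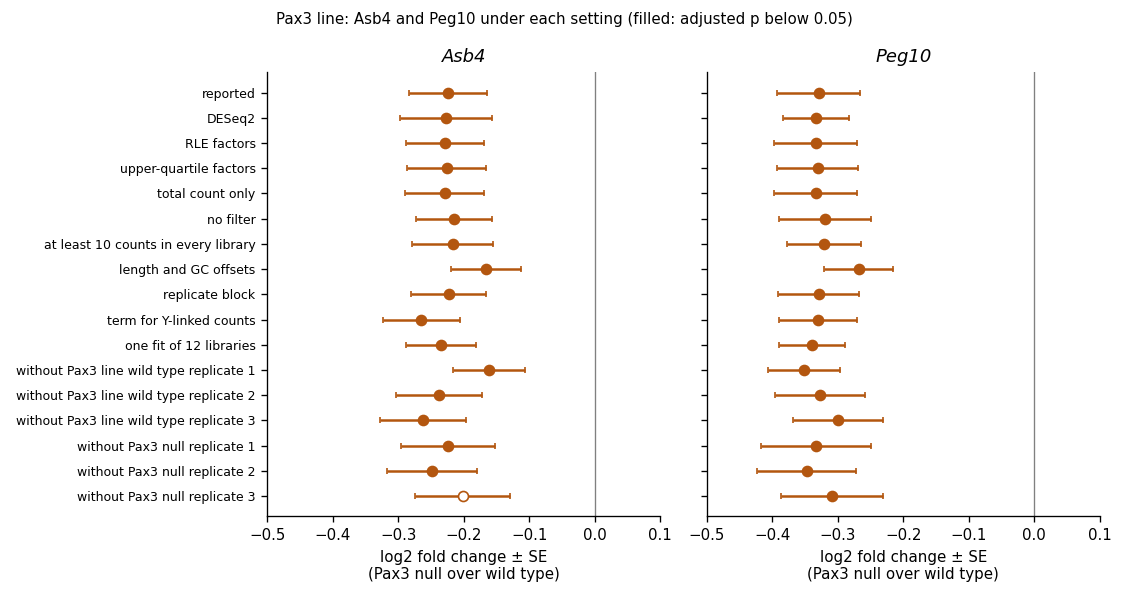
Log2 fold change of *Pax3* null over wild type with SE (horizontal axis) for *Asb4* (left) and *Peg10* (right) as reported and under 16 alternative settings (vertical axis). Filled points passed an adjusted *P* of 0.05. *Asb4* stays below 0 throughout and misses the threshold without *Pax3* null replicate 3 (-0.20), while *Peg10* passes in every setting run.

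The difference between the effects of the 2 lines was tested as an interaction in a single fit of 12 libraries. *Peg10* was 0.48 higher on the log2 scale in the *Carm1* effect than in the *Pax3* effect (SE 0.071, edgeR adjusted *P* = 1.1e-05). It passed in all 21 alternatives, between 0.44 and 0.52. For *Asb4* the difference was 1.10 (SE 0.076), given without a test since it contains the contrast that chose the gene. Its 3 *Carm1* null embryos lay 0.85, 0.87 and 0.88 above their wild-type mean on the log2 scale, while its 3 *Pax3* null embryos lay -0.23, -0.19 and -0.28 from theirs. By edgeR and by DESeq2, 0 of the other 6 tested genes passed, and *Pon3* alone had an unadjusted *P* below 0.05. *Pon3* came to 0.40 (SE 0.19, edgeR adjusted *P* = 0.14), *Calcr* to 0.53 (SE 0.43), *Ppp1r9a* to 0.12 (SE 0.085), *Sgce* to 0.095 (SE 0.10), *Pon2* to 0.092 (SE 0.12) and *Tfpi2* to -0.14 (SE 0.51). Over all 16292 genes tested, 19.1% were called in this comparison. *Peg10* was the call among the tested cluster genes other than *Asb4*, whose value is not counted because the *Carm1* contrast chose it.

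The wild-type embryos of the 2 lines differed in the cluster as well. *Peg10* was higher in wild-type embryos of the *Pax3* line (618 ± 19.2 CPM) than in those of the *Carm1* line (468 ± 10.4 CPM), with a log2 fold change of 0.40 (SE 0.050, edgeR adjusted *P* = 1.3e-07). *Pon2* was higher by 0.25 (SE 0.084, edgeR adjusted *P* = 0.015), a call that was lost without *Carm1* line wild-type replicate 1 (0.20, edgeR adjusted *P* = 0.082). *Asb4* was 0.24 higher (SE 0.054), which is given without a test because the *Carm1* line wild-type embryos also entered the contrast that chose it. *Sgce* (0.12, SE 0.074, edgeR adjusted *P* = 0.21) and *Ppp1r9a* (-0.12, SE 0.060, edgeR adjusted *P* = 0.10) did not pass. Of all 16292 genes tested, 43.7% were called between the wild-type groups. *Peg10* and *Pon2* were the calls among the tested cluster genes other than *Asb4*, whose value is not counted for the reason given. Strain, colony, laboratory and line cannot be told apart in this comparison. Across lines, *Asb4* in *Pax3* null embryos (83.8 ± 2.77 CPM) lay within the spread of *Carm1* line wild-type embryos (83.3 ± 2.85 CPM), so the order of the groups was *Carm1* null, *Pax3* line wild type, and then the remaining groups without a difference beyond their spread.

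The count of *Asb4* relative to *Peg10* in the same embryo does not depend on library scaling. There were 30.1, 28.6 and 29.2 *Asb4* counts per 100 *Peg10* counts in *Carm1* null embryos, and 17.4, 17.7 and 18.3 in their wild type. There were 17.1, 17.3 and 17.1 in *Pax3* null embryos and 17.8, 15.6 and 14.5 in theirs. The *Carm1* null embryos stood alone at a mean of 29.3 ± 0.765, whereas the other groups had means of 17.8 ± 0.454, 17.2 ± 0.126 and 16.0 ± 1.69. The *Pax3* null embryos lay inside the range of their wild type. The ratio holds *Asb4* of the *Carm1* line and is a description.

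**Figure D4:**
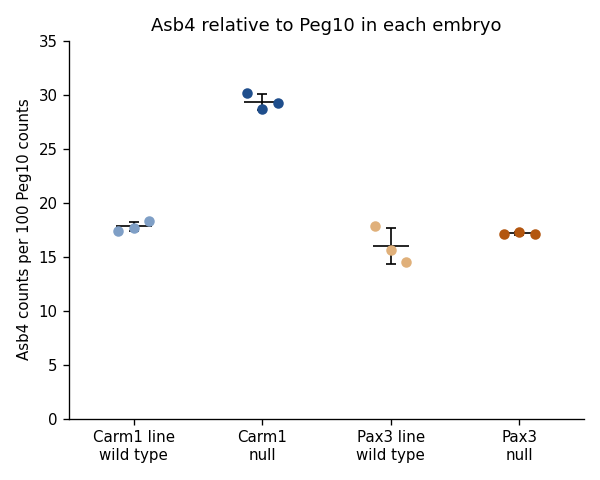
*Asb4* counts per 100 *Peg10* counts (vertical axis from 0) in each of 12 embryos (points), with mean and SD (bars), by group (horizontal axis). The 3 *Carm1* null embryos lie between 28.6 and 30.1 and the other 9 between 14.5 and 18.3.

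Among other genes within 1 Mb of the cluster, 2 of 10 tested passed in each line, beside 13.3% of all genes called in the *Carm1* line and 24.5% in the *Pax3* line, so the counts are not a result about the region. In the *Carm1* line *Col1a2* and *Casd1* passed. *Col1a2*, which encodes a chain of type I collagen, fell from 1245 ± 93.2 to 986 ± 20.3 CPM (log2 fold change -0.34, SE 0.051, edgeR adjusted *P* = 1.5e-05). *Casd1*, which encodes a sialic acid O-acetyltransferase and lies next to *Sgce*, rose from 78.8 ± 3.17 to 89.1 ± 5.03 CPM (0.18, SE 0.052, edgeR adjusted *P* = 0.019). The call of *Casd1* was lost when any of 3 libraries was left out, *Carm1* null replicates 1 and 2 and wild-type replicate 2 (edgeR adjusted *P* = 0.055, 0.17 and 0.097). *Pdk4*, the pyruvate dehydrogenase kinase gene that follows *Asb4*, was at -0.10 (SE 0.26, edgeR adjusted *P* = 0.85).

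In the *Pax3* line *Dync1i1* and *Gng11* passed. *Dync1i1*, which encodes an intermediate chain of dynein, had 3.43, 3.08 and 2.34 CPM in null and 5.81, 5.94 and 5.77 CPM in wild-type embryos (-0.98, SE 0.17, edgeR adjusted *P* = 1.0e-04). *Gng11*, a G protein subunit gene between *Tfpi2* and *Col1a2*, had means of 16.2 ± 2.09 and 11.9 ± 0.219 CPM (0.46, SE 0.10, edgeR adjusted *P* = 0.0018), and its call was lost with length and GC offsets (0.21, edgeR adjusted *P* = 0.16). Just beyond this window, *Shfm1*, a proteasome subunit gene now called *Sem1*, had 106, 110.4 and 111.5 CPM in *Pax3* null embryos and 57.0, 64.9 and 68.7 CPM in their wild type (0.79, SE 0.064, edgeR adjusted *P* = 9.6e-10). The wild-type embryos of the *Pax3* line stood apart for this gene, since both groups of the *Carm1* line averaged 106 ± 8.25 and 107 ± 5.93 CPM. Over the list of neighbours on proximal chromosome 6, *Asb4* and the other studied genes included, 3 of 21 tested genes rose, with *Asb4* among them, and 1 fell in the *Carm1* line, beside 5.49% and 7.83% of all genes, and 2 rose and 3 fell in the *Pax3* line, beside 14.0% and 10.5%. As the *Carm1* contrast chose *Asb4*, nothing is read from the count.

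The counts of calls for related genes, imprinted genes and tissue markers stand beside 13.3% of all genes called in the *Carm1* line (5.49% higher, 7.83% lower) and 24.5% in the *Pax3* line (14.0% higher, 10.5% lower). With length and GC offsets the shares over all genes were 20.1% (11.9% higher, 8.16% lower) and 17.3% (9.63% higher, 7.64% lower). Rises in the *Carm1* line thus became more frequent over all genes, and counts with offsets are read against these shares. Median log2 fold changes in the *Carm1* line showed little trend, from 0.0080 in the shortest eighth of genes to -0.010 in the longest. By GC content they went from -0.012 in the lowest eighth to 0.0099 in the highest. Calls gained in that line with offsets show dependence on processing and are not corrected results. Of 10 tested genes of the ASB family *Asb4* was the called gene in the *Carm1* line, and since that value chose it nothing is read from this count. Of 12 tested in the *Pax3* line *Asb4* fell and *Asb6*, another family member, rose by 0.26 (SE 0.078, edgeR adjusted *P* = 0.016), a call lost with length and GC offsets (0.18, edgeR adjusted *P* = 0.091), where *Asb4* and *Asb10* were the called genes, both lower. Of 10 genes for the cullin 5 ligase of ASB4, its partners and described substrates, *Irs4*, an insulin receptor substrate described as a target of ASB4, was the single one called in the *Carm1* line. It rose from 3.59 ± 0.706 to 5.59 ± 0.660 CPM (0.63, SE 0.18, edgeR adjusted *P* = 0.014), and *Ube2d2a* joined it with length and GC offsets. For the *Pax3* line, *Tceb2* (0.40, SE 0.066), *Tceb1* (0.26, SE 0.067) and *Rnf7* (0.27, SE 0.074), which encode elongin B, elongin C and a RING subunit of cullin 5 ligases, rose (edgeR adjusted *P* = 9.4e-05, 0.0051 and 0.013), and 1 of 10 did so with length and GC offsets. The medians of this list were 0.017 and 0.035.

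Relatives of *Peg10*, derived from the same kind of retrotransposon or carrying a gag-like domain, were lower where they changed in the *Carm1* line. Of 14 tested, none rose and 6 fell, with a median of -0.26 against 0.0014 over all genes. Markers of several tissues also fell in this line, as given below. Among them, 7 of 15 neuronal markers were lower and 0 higher. Their summed level was 2475 to 2534 CPM in null and 2688 to 2866 CPM in wild-type embryos. A relation between these falls was not tested. *Zcchc18* fell from 41.2 ± 0.398 to 32.0 ± 2.08 CPM (-0.37, SE 0.065, edgeR adjusted *P* = 1.6e-04) and *Zcchc12* from 27.2 ± 0.683 to 20.2 ± 0.916 CPM (-0.43, SE 0.077, edgeR adjusted *P* = 1.8e-04). Of 15 in the *Pax3* line, 2 rose, *Zcchc18* and *Zcchc12*, and 1 fell, *Cxx1a*, whereas 1 rose and 5 fell with length and GC offsets. The sarcoglycan and dystrophin complex, in which the product of *Sgce* takes part, had 1 fall among 13 tested genes in the *Carm1* line (*Sspn*, sarcospan, -0.39), joined by a rise of *Utrn* with length and GC offsets, and 2 among 14 in the *Pax3* line (*Sntb1*, a syntrophin, -0.52, and *Utrn*, utrophin, -0.24). The call of *Utrn* was lost with length and GC offsets (-0.12, edgeR adjusted *P* = 0.12), where *Dag1*, dystroglycan, was called lower beside *Sntb1*.

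For the partners of neurabin, 2 of 8 fell in the *Carm1* line, and 2 rose and 3 fell in the *Pax3* line, where 1 rose and 1 fell with length and GC offsets. *Rgs4*, a regulator of G protein signalling, fell in both (-0.28, SE 0.089 and -1.12, SE 0.11), as did *Dclk1*, a kinase of growing neurons (-0.25, SE 0.047 and -0.17, SE 0.060), although the *Pax3* line call of *Dclk1* was lost with those offsets (-0.040, edgeR adjusted *P* = 0.65). Of 7 tested genes of the calcitonin receptor family, its ligands and accessory proteins, 0 passed in either line by edgeR or by DESeq2, which gave no adjusted *P* for 2 of them in the *Pax3* line, and 3 (*Adm*, *Ramp2* and *Ramp3*) had an unadjusted edgeR *P* below 0.05 in the *Carm1* line, against 0 in the *Pax3* line. *Ramp3* was called higher in the *Carm1* line with length and GC offsets. Of 8 Kunitz-type inhibitors, relatives of *Tfpi2*, 2 fell in the *Carm1* line, *Ambp* (-0.75) and *Wfikkn2* (-0.41), and in the *Pax3* line 2 rose, *Spint2* (0.30) and *Ambp* (0.26), and 1 fell, *Aplp2* (-0.17). With length and GC offsets *Ambp* (0.030, edgeR adjusted *P* = 0.87) and *Aplp2* (-0.12, edgeR adjusted *P* = 0.067) lost their calls in the *Pax3* line, and *Tfpi* rose in the *Carm1* line.

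Factors that set or keep parental methylation marks gave 3 calls among 12 tested genes in the *Carm1* line and 2 among 12 in the *Pax3* line. These became 5 rises and 1 fall in the *Carm1* line with length and GC offsets, and 3 rises in the *Pax3* line. In the *Carm1* line, *Dnmt3b*, a DNA methyltransferase, rose (0.30, SE 0.076, edgeR adjusted *P* = 0.0064), *Trim28*, the corepressor recruited by *Zfp57*, rose (0.17, SE 0.045, edgeR adjusted *P* = 0.010), and *Zfp57*, a zinc finger protein that protects imprints, fell from 136 ± 4.15 to 119 ± 2.94 CPM (-0.19, SE 0.046, edgeR adjusted *P* = 0.0037). *Dnmt3a* rose in the *Pax3* line (0.18, SE 0.061, edgeR adjusted *P* = 0.032) and *Smchd1* fell (-0.21, SE 0.061, edgeR adjusted *P* = 0.012), but with length and GC offsets *Smchd1* was not called (-0.042, edgeR adjusted *P* = 0.59). Of 49 tested imprinted genes outside this cluster, 4 rose and 8 fell in the *Carm1* line, with a median of -0.055, and 6 rose and 7 fell in the *Pax3* line, with a median of -0.048. With length and GC offsets 8 rose and 7 fell in the *Carm1* line and 5 rose and 6 fell in the *Pax3* line, and rises over all genes of the *Carm1* line also became more frequent with them. In the *Pax3* line the count is close to the share over all genes.

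Among the imprinted genes elsewhere, *Ndn*, which encodes necdin, fell in the *Carm1* line from 151 ± 5.20 to 104 ± 9.54 CPM (-0.54, SE 0.053, edgeR adjusted *P* = 1.3e-08), and its neighbour *Magel2* rose from 38.9 ± 2.82 to 53.6 ± 3.11 CPM (0.47, SE 0.063, edgeR adjusted *P* = 2.4e-06). *Dlk1*, an inhibitor of Notch signalling read from the paternal copy, and *Meg3*, the noncoding RNA of its maternal copy, both fell (-0.29, SE 0.049 and -0.30, SE 0.052, edgeR adjusted *P* = 8.1e-05 and 1.2e-04). *Tssc4* (0.48, SE 0.068) and *Nnat* (0.34, SE 0.070) rose in the *Pax3* line, and *Kcnq1ot1* (-0.32, SE 0.063) and *Plagl1* (-0.32, SE 0.064) fell. With length and GC offsets *Nnat* lost its call (0.086, edgeR adjusted *P* = 0.31), and *Tssc4* (0.22), *Kcnq1ot1* (-0.16) and *Plagl1* (-0.23) were smaller but still called.

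Markers of tissues in which *Asb4* or *Peg10* are known were read beside these results, and their part in the results was not tested. The summed level of 15 endothelial markers lay between 548 and 577 CPM in *Carm1* null and between 517 and 551 CPM in wild-type embryos, and 3 of 15 rose (*Egfl7*, *Tek* and *Emcn*, by 0.26 to 0.33) while *Erg* fell (6 rises and 1 fall with length and GC offsets). In the *Pax3* line the sum was 471 to 523 CPM in null and 491 to 508 CPM in wild-type embryos, with 3 rises, or 2 rises and 1 fall with length and GC offsets. For 15 hypothalamic markers the sums were 62.5 to 64.7 CPM in *Carm1* null and 62.5 to 65.2 CPM in wild-type embryos, and of 11 tested *Otp* rose (0.46) while *Sst* (-0.54), *Npy* (-0.60) and *Crh* (-1.32) fell. In the *Pax3* line the sums were 73.4 to 78.3 CPM in null and 62.5 to 67.2 CPM in wild-type embryos, without overlap. Of 12 tested there, *Otp* (0.39) and *Pomc* (1.07) rose, and both calls were lost with length and GC offsets (edgeR adjusted *P* = 0.076 and 0.056). The 15 markers of trophoblast and placenta summed to 6.55 to 11.8 CPM over all 12 libraries, and 6 or 7 of them had no count at all in each of the 4 groups. By the filter 3 could be tested, of which *Hand1*, also a gene of heart and gut mesoderm, rose in the *Carm1* line (0.71, SE 0.20) and fell in the *Pax3* line (-0.45, SE 0.15).

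Markers of other tissues were counted in the same way. Of 18 hepatocyte markers 16 fell in the *Carm1* line (summed level 985 to 1199 CPM in null and 1811 to 2200 CPM in wild-type embryos), and 1 rose and 3 fell in the *Pax3* line (1090 to 1183 and 1295 to 1608 CPM). Skeletal muscle markers fell in 11 of 15 tested genes in each line, with 1 rise in the *Pax3* line (743 to 824 and 1009 to 1177 CPM in the *Carm1* line, 347 to 385 and 571 to 659 CPM in the *Pax3* line). Of 15 neuronal markers 7 fell in the *Carm1* line, and 1 rose and 6 fell in the *Pax3* line. For mesenchyme and connective tissue 1 rose and 6 fell in the *Carm1* line, and 1 rose and 3 fell in the *Pax3* line. Under length and GC offsets 3 rose and 7 fell in the *Carm1* line and 1 rose and 1 fell in the *Pax3* line. Of 13 tested erythroid markers 1 rose and 10 fell in the *Carm1* line and 1 rose and 1 fell in the *Pax3* line. In the *Carm1* line the summed level of these markers overlapped between the groups, with 7977 to 9312 CPM (median 8564) in *Carm1* null and 5842 to 9977 CPM (median 7701) in wild-type embryos, while 10 of the 13 genes fell.

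The genes whose pattern was most like that of *Asb4* were sought over 12 libraries, as the Pearson correlation of log2 CPM centred on the mean of each line, among 14486 genes. They were *Zswim5* (r = 0.95), *Prex2* (0.94), *Cdk7* (0.94), *Khdrbs1* (0.94) and *Mpo* (0.94). The points share libraries and depth, and the correlations draw on the *Carm1* contrast that chose *Asb4*, so they are a description. Of the 5, *Mpo*, the myeloperoxidase gene of myeloid cells, had 30.5 ± 2.18 CPM in *Carm1* null and 15.0 ± 2.10 CPM in wild-type embryos (log2 fold change 1.03), and the other 4 were 0.14 to 0.31 higher. For genes of the cluster r was 0.67 for *Pon3*, 0.58 for *Peg10*, 0.52 for *Calcr*, 0.49 for *Pon2*, 0.38 for *Ppp1r9a* and 0.22 for *Sgce*.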

How the data were processed

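Polyadenylated RNA of 12 whole E12.5 embryos was sequenced. Reads were aligned to mm10 with STAR, and featureCounts assigned them to gene exons. What the authors deposited are these raw counts, whole numbers for each gene in each library with no scaling. Versions, gene annotation, strand setting and the treatment of reads with several matches are not given in the sources used here. Each table lists 23420 symbols, and in GENCODE (GRCm38) 21777 of them were found unchanged, 1260 by a former symbol and 383 not at all.

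Counts were analysed with edgeR (version 4.0.16, R 4.3.3): TMM scaling, filterByExpr, robust quasi-likelihood fits and Benjamini-Hochberg adjustment at 0.05, for each line alone and, for the interaction and the wild-type groups, over 12 libraries. The fits were first tested on simulated data, and the outcome is not given here. Alternatives were DESeq2 (version 1.42.0), RLE, upper-quartile or no scaling, no filter or at least 10 counts in every library, a covariate for Y-linked counts, a replicate block, a joint fit of 12 libraries (or of the wild-type libraries alone) and leaving out each library. Offsets for exon length and GC content, splines with 5 degrees of freedom, were added after seeing the data.

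The members and lists were chosen with earlier results of these data known. Genes named are the 9 members, *Carm1* and *Pax3*, called genes within 1 Mb, up to 4 called genes of each list by smallest adjusted *P*, and the 5 genes most correlated with *Asb4* (mean of at least 1 CPM in both lines; 0.5 CPM added). Tissue markers are given mainly as counts. *Hbb-bh1*, *Spen*, *Pdk4* and genes named for an unadjusted *P* or for a call with offsets alone were chosen after their values were seen. *P* values set the difference between groups against the spread between embryos, whose litters are not known.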

Additional observations from a re-analysis of the deposited data

Results flagged for a closer look

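The effect on *Asb4* ran in opposite directions in the 2 lines. Each *Carm1* null embryo lay above its wild-type mean and each *Pax3* null embryo below it, and the log2 fold changes differed by 1.10. This difference was not tested, since the *Carm1* contrast chose the gene. *Peg10* also differed between the lines, by 0.48 in the interaction test (edgeR adjusted *P* = 1.1e-05), with 0.14 in the *Carm1* line and -0.33 in the *Pax3* line. Among other genes nearby, the *Carm1* effect minus the *Pax3* effect was -0.68 for *Gng11* (edgeR adjusted *P* = 0.0013), 0.26 for *Casd1* (edgeR adjusted *P* = 0.012), 0.94 for *Dync1i1* (edgeR adjusted *P* = 0.0041) and -0.79 for *Shfm1* (edgeR adjusted *P* = 1.6e-07). The call of *Casd1* was lost in 1 of 12 fits that left out a library (edgeR adjusted *P* = 0.065). Over 9 processing alternatives the value of *Gng11* ranged from -0.69 to -0.41 and kept its call.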

How the results depend on the processing

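Of 587 values of the cluster genes under alternatives, 559 kept their direction and their side of the threshold, 8 lost a call, 3 gained a call and 17 changed sign, none of the latter a call. These values include *Asb4* in the *Carm1* line (16), in the difference between the effects (21) and between the wild-type groups (21), all of which stayed the same. Those fits hold libraries that chose the gene, so nothing is read from their stability. *Asb4* stayed between 0.84 and 0.89 in the *Carm1* line, which is a description.

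The replicate block could not be fitted between the wild-type groups, since the numbers are nested in the lines. Replicate numbers were not taken to pair the embryos. Correlations of deviations between embryos of the same number were -0.050, -0.0037 and -0.037 in the *Carm1* line and 0.17, -0.071 and 0.24 in the *Pax3* line. Between embryos of different numbers they ran from -0.017 to 0.052 and from -0.34 to 0.22. In the *Pax3* line they were positive where both embryos or neither had at least 100 Y-linked counts, and negative otherwise. With litters not given, these values cannot tell whether embryos were paired. Embryos did not all correlate best with their own number. With the replicate block 1787 genes were called in the *Carm1* line, 4177 in the *Pax3* line and 3094 in the difference between the effects (2106, 3851 and 3115 as reported), with 1, 2 and 2 of the cluster. Here and below, counts of the cluster in the *Carm1* line and in the difference include *Asb4*, whose values there carry no test.

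In the *Carm1* line 1 gene of the cluster, instead of 2, was called with total counts only, with the replicate block and in a joint fit of 12 libraries, as *Peg10* lost its call (edgeR adjusted *P* = 0.055, 0.076 and 0.065). Leaving out 1 library at a time gave 1224 to 2290 calls over all genes (2106 as reported) and 1 to 2 in the cluster in the *Carm1* line. The lowest counts came without *Carm1* null replicate 1 (1224), wild-type replicate 2 (1349) and null replicate 2 (1381). In the *Pax3* line it gave 2454 to 4103 (3851 as reported) and 1 to 2, the lowest without null replicate 3 (2454) and null replicate 1 (2565).

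With length and GC offsets, *Sgce* (0.16) and *Ppp1r9a* (0.075) changed sign in the *Pax3* line, as did *Sgce* (-0.039) and *Pon2* (-0.014) in the difference between the effects. Between the wild-type groups *Calcr* changed sign with upper-quartile factors (-0.025) and with at least 10 counts in every library (-0.0027), and *Ppp1r9a* gained a call with the former (-0.15, edgeR adjusted *P* = 0.040) and without *Pax3* line wild-type replicate 1 (-0.23, edgeR adjusted *P* = 4.2e-04). Leaving out 1 library turned genes that were not called, with ranges of -0.038 to 0.12 for *Sgce* in the *Carm1* line, -0.061 to 0.0045 for *Sgce*, -0.12 to 0.049 for *Ppp1r9a* and -0.20 to 0.42 for *Calcr* in the *Pax3* line, -0.47 to 0.30 for *Tfpi2* in the difference between the effects, and -0.34 to 0.16 for *Calcr* between the wild-type groups. The causes were not tested.

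Few counts limit *Pon1*, *Calcr* and *Tfpi2*. DESeq2 gave no adjusted *P* for *Calcr* and *Tfpi2* in the *Pax3* line.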
